A study of Mus musculus with 2 samples.

Results

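Mir128-1, Mir128-2, Mir129-1, Mir129-2, Mir138-1 and Mir138-2 are 6 microRNA (miRNA) genes that form 3 pairs of numbered copies. They were taken by gene name from the GENCODE M21 annotation, as 6 of the 2202 miRNA genes listed in each deposited table. Small RNA of the left cerebral cortex was sequenced from 2 male B6CASTF1/J mice aged 25 days, the F1 offspring of a cross between C57BL/6J and CAST/EiJ. Both samples belong to a single untreated group, biological replicates 1 and 2, and each library was made from its own numbered mouse. The data therefore describe the level of each locus, how the reads of a pair divide between its copies, and how the libraries differ.

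A miRNA gene is transcribed into a long precursor, from which a hairpin is cut, and each arm of the hairpin can give a mature miRNA that guides repression of target mRNAs. The mature miRNA recognises its targets mainly through its seed, bases 2 to 8. In all 3 pairs the genome holds separate hairpins that give an identical mature arm, so a target site cannot distinguish which copy supplied it. The miR-128 arm is enriched in the brain and limits neuronal excitability in mice. The miR-129-5p arm represses the potassium channel Kcna1 (Kv1.1) and the miR-138-5p arm limits the size of dendritic spines, both described in rat neurons.

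All 6 members matched a hairpin in the RefSeq table (GRCm38.p6, the assembly also called mm10), and their start and end positions were the same there as in GENCODE M21. Mir128-1 (ENSMUSG00000065520.2) lies on the plus strand of chromosome 1, chr1:128202361-128202430, within an intron of the protein-coding gene R3hdm1. Mir128-2 (ENSMUSG00000065441.2) lies on the minus strand at chr9:112118636-112118711, within an intron of Arpp21, which encodes a cAMP-regulated phosphoprotein. Mir129-1 (ENSMUSG00000065469.1) lies at chr6:29022619-29022691 on the plus strand, in an exon of the long non-coding RNA gene Gm3294. Mir129-2 (ENSMUSG00000065511.1) lies at chr2:94241364-94241453 on the minus strand, in an intron of the non-coding gene Mir670hg. Mir138-1 (ENSMUSG00000065414.1) lies at chr9:122682876-122682974 on the plus strand, in an exon of the transcribed pseudogene Gm47135. Mir138-2 (ENSMUSG00000065512.3) lies at chr8:94324311-94324381 on the plus strand, in an exon of the non-coding gene C78859. Each of these overlapping genes has the orientation of its miRNA, and both Mir128 copies lie in introns of protein-coding genes, which no other member does.

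The mature arms show what a read can tell about its locus. They are given 5′ to 3′ with the seed in capitals, first the arms that match both copies of their pair exactly and then those that match 1 copy.
miR-128-3p: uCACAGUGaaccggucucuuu
miR-129-5p: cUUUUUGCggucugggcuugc
miR-138-5p: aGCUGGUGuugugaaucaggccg
miR-128-1-5p: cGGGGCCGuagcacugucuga
miR-128-2-5p: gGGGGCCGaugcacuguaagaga
miR-129-2-3p: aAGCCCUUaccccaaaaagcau
miR-138-1-3p: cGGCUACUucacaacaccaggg
miR-138-2-3p: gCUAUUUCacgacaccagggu
Of the 8 distinct mature names in the table, 3 matched the hairpins of both copies and 5 matched 1 hairpin among the 1005 in the table. The seed GGGGCCG was shared by the 5′ arms of Mir128-1 and Mir128-2, and the other 6 arms had a seed found under no other mature name in the table, which leaves 7 distinct seeds. For Mir129-1 the table lists miR-129-5p alone, so the seed of miR-129-2-3p cannot be called specific to Mir129-2. The arm miR-129-2-3p differed from the best-matching stretch of the Mir129-1 hairpin by the single substitution C20U, outside the seed, with positions counted from 1 at the arm's 5′ end. The arm miR-138-1-3p differed from the Mir138-2 hairpin by C7U and A13G, and miR-138-2-3p differed from the Mir138-1 hairpin by U5C, G11A and U21C. C7U and U5C are the same site of the Mir138 pair, numbered differently because the annotated 3′ arms start at different bases. The site lies inside bases 2 to 8 of both arms, and their seeds differ by this site and by the start.

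The hairpins are given because they show how far the identity between copies reaches, with the longest run shared by the pair in capitals.
Mir128-1: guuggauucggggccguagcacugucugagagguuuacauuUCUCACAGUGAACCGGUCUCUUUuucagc
Mir128-2: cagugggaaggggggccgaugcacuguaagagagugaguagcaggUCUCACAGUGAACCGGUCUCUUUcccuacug
Mir129-1: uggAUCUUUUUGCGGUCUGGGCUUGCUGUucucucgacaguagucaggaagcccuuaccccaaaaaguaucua
Mir129-2: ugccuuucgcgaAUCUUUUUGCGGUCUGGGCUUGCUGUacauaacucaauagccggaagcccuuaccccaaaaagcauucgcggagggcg
Mir138-1: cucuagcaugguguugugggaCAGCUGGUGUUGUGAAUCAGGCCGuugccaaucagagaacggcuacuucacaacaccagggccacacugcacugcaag
Mir138-2: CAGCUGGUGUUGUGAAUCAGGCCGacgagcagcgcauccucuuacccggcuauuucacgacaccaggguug
The shared run spans 23 bases in the Mir128 pair, 26 in the Mir129 pair and 24 in the Mir138 pair, and in each it contains the whole shared arm with 1 to 5 bases beside it. Aligned end to end, with the run included, the hairpins were 71.1% identical for Mir128, 63.7% for Mir129 and 51.5% for Mir138. These are 54 of 76, 58 of 91 and 51 of 99 alignment columns, gaps included. A difference in annotated length, as in the Mir138 pair with 99 and 71 bases, therefore lowers the value. The percentages do not rank the pairs by likeness. In the Mir129 pair the likeness reaches beyond the run, as the single substitution in miR-129-2-3p shows. A read of that arm that ends before the C20U site matches both hairpins. The likeness reaches beyond the run in the Mir138 pair too, with 2 substitutions in miR-138-1-3p and 3 in miR-138-2-3p. Of the 22-base windows in a hairpin, 2 of 49 in Mir128-1, 5 of 52 in Mir129-1 and 3 of 78 in Mir138-1 also occurred in the partner, and none of the windows of the 6 members occurred in a hairpin other than the partner.

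**Figure D1:**
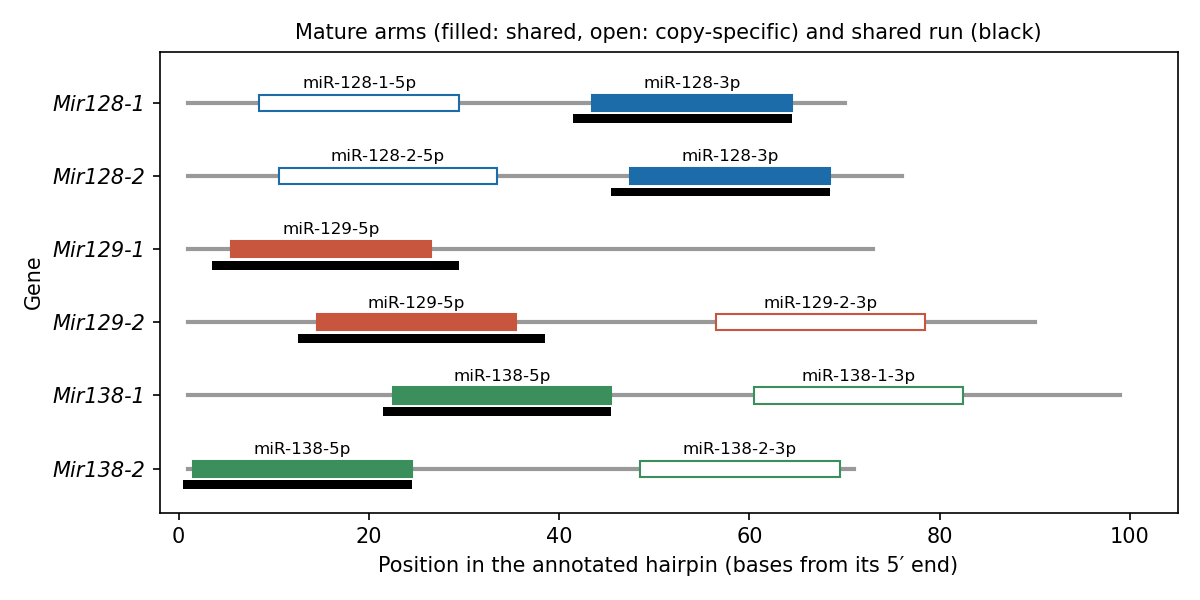
Map of the 6 hairpins, drawn to scale in bases from the 5′ end, with mature arms as boxes (filled where the arm is identical in both copies, open where it is specific to 1 copy) and the longest run shared by a pair as a black bar. The shared run covers the 3′ arm in the Mir128 pair and the 5′ arm in the Mir129 and Mir138 pairs, and has 23, 26 and 24 bases.

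These sequences set what the counts can measure. Reads with several matches were kept apart in the deposited tables and given to no gene: replicate 1 had 2636677 of them (48.6% of mapped reads) and replicate 2 had 5818669 (52.8%). A read that lies inside the shared run matches both hairpins of the pair. The counts of the 6 genes are therefore counts of reads given to 1 gene only. The level of the shared arms miR-128-3p, miR-129-5p and miR-138-5p is uncertain. In the Mir128 and Mir138 pairs the shared arm ends with the run, and the base after it differs between the copies. A read of that arm with an added or misread base at its 3′ end could match 1 copy better, whichever copy it came from. How far this affects counts and copy shares was not tested. The tables count reads per gene, so the arm a read came from is not analysed here.

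Own-strand counts, the reads on the annotated strand of a gene, summed to 2388379 in replicate 1 and 4447390 in replicate 2, and levels are given as counts per 1000000 of these (CPM), as mean ± SD over n = 2 libraries. The limit that a count of 0 allows, 3 counts, was 1.26 CPM in replicate 1 and 0.675 CPM in replicate 2, far below every member. Neuronal marker genes summed to 8.35% of counts in replicate 1 and 5.97% in replicate 2, mainly Mir132, Mir433 and Mir137, while the 3 Mir124a copies had at most 9 counts each in a library. Reads with several matches went to no gene here either, so counts of markers with numbered copies, such as Mir124a, can understate their level. Endothelial and mural markers held 1.68% and 2.80%, oligodendrocyte markers 0.273% and 0.356%, and microglial and leukocyte markers 0.231% and 0.249%. The endothelial and mural sum was higher in replicate 2 through Mir126a alone (log2 ratio 1.06), as Mir143 (−0.11) and Mir145a (−0.22) were lower, and the oligodendrocyte sum through Mir219a-2 alone (0.72), with Mir338 at −0.03 and Mir219a-1 at −0.75. Red cell, choroid plexus, muscle and liver markers each held under 0.1% in both libraries. In bulk tissue, fewer cells of a type and less RNA per cell cannot be told apart.

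In reads assigned to a gene, the Mir128 copies were the most abundant pair. Levels and ranks here and below leave out reads with several matches. Mir128-1 had 25799 counts in replicate 1 and 78299 in replicate 2, or 10802 and 17606 CPM, a mean of 14204 ± 4811 CPM. Replicate 2 was the higher one, and the gene ranked 20 and 12 among all genes of the 2 libraries. It held 1.08% of the counts of replicate 1 (95% exact Clopper-Pearson interval 1.07 to 1.09%) and 1.76% of those of replicate 2 (1.75 to 1.77%). Mir128-2, the copy inside Arpp21, had 6638 and 16753 counts, or 2779 and 3767 CPM (3273 ± 698 CPM). It was again higher in replicate 2, and in both libraries it stayed below Mir128-1.

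The Mir138 copies came next. Mir138-1 had 11284 and 22696 counts, or 4725 and 5103 CPM (4914 ± 268 CPM). Mir138-2 had 6297 and 11111 counts, or 2637 and 2498 CPM (2567 ± 97.7 CPM). Replicate 2 was the higher library for Mir138-1 and the lower one for Mir138-2, and copy 1 was above copy 2 in both.

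The Mir129 pair was the least abundant in assigned reads, and here copy 2 led. Mir129-2 had 3082 and 9668 counts, or 1290.4 and 2174 CPM (1732 ± 625 CPM). Mir129-1 had 888 and 1832 counts, or 372 and 412 CPM (392 ± 28.4 CPM). Replicate 2 was the higher library for both, by a wide margin for Mir129-2 and a narrow one for Mir129-1.

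The order of the 6 genes was the same in both mice, from Mir128-1 through Mir138-1, Mir128-2, Mir138-2 and Mir129-2 to Mir129-1. No neighbours in this order overlapped: the lower library of each gene stood above the higher library of the next. The closest were Mir128-2 and Mir138-2, at 2779 and 2637 CPM in replicate 1, a ratio of means of 1.27. With only 2 libraries this order has no test. Divided by annotated gene length, the mean levels were 203 CPM per base for Mir128-1, 49.6 for Mir138-1, 43.1 for Mir128-2, 36.2 for Mir138-2, 19.2 for Mir129-2 and 5.37 for Mir129-1, which is the same order. Annotated length includes bases outside the mature arms, so this order is no check on reads per arm.

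**Figure D2:**
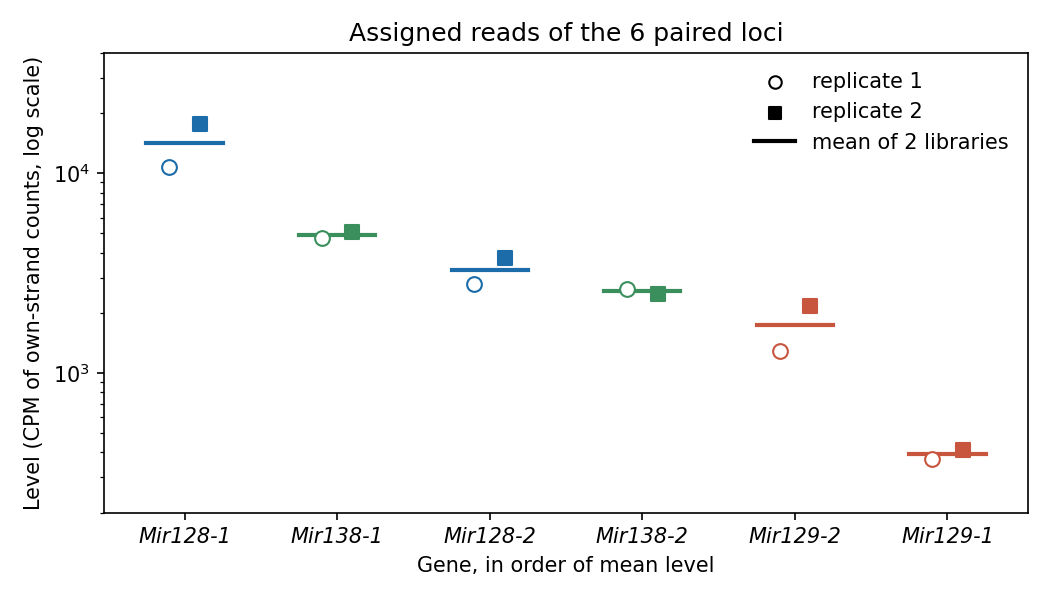
Levels of the 6 genes in CPM of own-strand counts on a log axis, with an open circle for replicate 1, a filled square for replicate 2 and a line for their mean. The genes keep the same order in both libraries, from Mir128-1 at 14204 CPM to Mir129-1 at 392 CPM on average.

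Together the 6 genes held 2.26% of all assigned counts in replicate 1 and 3.16% in replicate 2. Among the 142 miRNA genes of the table with numbered copies, they held 60.8% and 69.1% of the counts. All 142 together held 3.72% and 4.57% of assigned counts, which leave out reads with several matches. Mir128-1 and Mir138-1 ranked 1 and 2 among those 142 genes in both libraries. Mir129-1 ranked 15 in replicate 1 and 13 in replicate 2, while the median level of the 45 numbered copies with at least 10 counts in each library was 108 and 102 CPM. The pair sums were 13581 and 21373 CPM for Mir128, 7361 and 7602 CPM for Mir138 and 1662 and 2586 CPM for Mir129.

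The reads assigned to a pair divided unequally in all 3 pairs. Mir128-1 supplied 79.5% of the Mir128 counts in replicate 1 (exact interval 79.1 to 80.0%) and 82.4% in replicate 2 (82.1 to 82.6%), or 81.0% ± 2.01. Mir129-1 supplied 22.4% of the Mir129 counts (21.1 to 23.7%) and 15.9% (15.3 to 16.6%), or 19.1% ± 4.55, so Mir129-2 gave 80.9%. Mir138-1 supplied 64.2% of the Mir138 counts (63.5 to 64.9%) and 67.1% (66.6 to 67.6%), or 65.7% ± 2.09. The more abundant copy was thus the same in both mice for each pair, and the intervals of the 2 libraries did not overlap within any pair. Per base of annotated length the Mir138-1 share was 57.8%, since its hairpin annotation is 99 bases long against 71 for Mir138-2, and the shares of Mir128-1 and Mir129-1 were 82.2% and 22.6%. The Mir138 mature arms are 21 to 23 bases long in both copies, so most of that length difference lies outside them. The per-base share is thus a share by annotated length, not by mature arm.

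The copy shares were set beside all 2-copy miRNA genes of the table. Of these 43 pairs, 21 had at least 10 counts per pair in each library and a count for each copy. The 21 hold the 3 member pairs and 18 others. The more abundant copy held a median of 79.7% over these 21 pairs, with a range of 56.9 to 99.6%, and was the same copy in both libraries for 19 of them. Mir128 and Mir138 ranked 1 and 2 by summed counts among the 21, and Mir129 ranked 5. Of the other pairs with high counts, Mir181b-2 held 99.0% ± 0.0315 of the Mir181b counts, Mirlet7f-2 held 93.5% ± 1.19 of the Mirlet7f counts and Mirlet7c-2 held 77.5% ± 1.05 of the Mirlet7c counts. The shared runs of the 3 member pairs lay within the range of 22 to 28 bases, with a median of 24, found for the 20 pairs with both hairpins in the RefSeq table.

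All 3 pairs divided differently in the 2 libraries by Fisher's exact test (two-sided, Benjamini-Hochberg adjusted over the 21 pairs), which compares these libraries and covers counting error only. Since 14 of the 21 pairs passed, 66.7%, among them 11 of the 18 non-member pairs, passing does not set the 3 apart. The Mir128-1 share was 2.84 percentage points higher in replicate 2, a log2 odds ratio of 0.27 with a counting SE of 0.023 (adjusted p = 1.34e-28). The Mir138-1 share was 2.95 points higher, a log2 odds ratio of 0.19 with an SE of 0.028 (adjusted p = 1.17e-10). The Mir129-1 share differed by −6.44 points and was lower in replicate 2, a log2 odds ratio of −0.60 with an SE of 0.066 (adjusted p = 1.69e-18). By size of the odds ratio Mir129 ranked 6, Mir128 16 and Mir138 18 of the 21, whose median absolute log2 odds ratio was 0.40. In each of the 3 pairs the more abundant copy had the larger share in replicate 2, as it did in 14 of the 21.

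**Figure D3:**
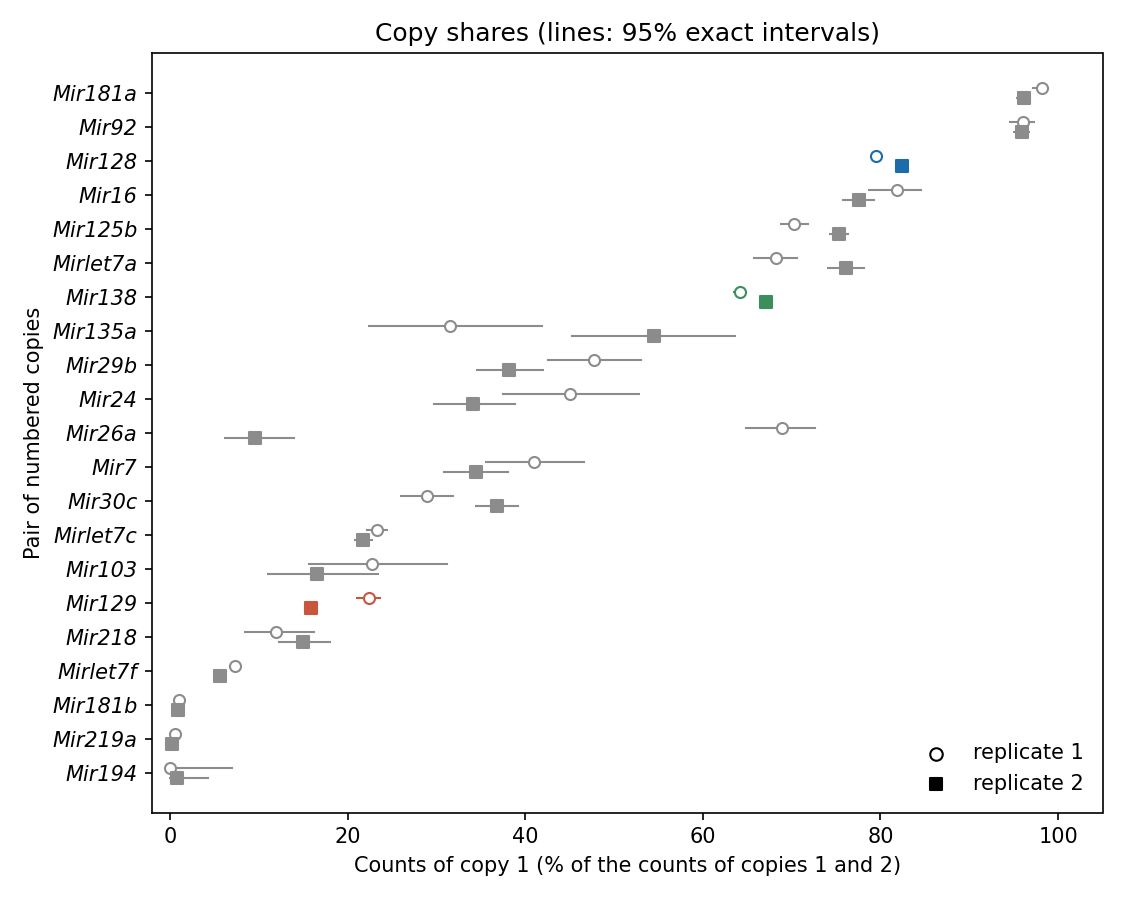
Share of copy 1 among the counts of copies 1 and 2 for the 21 pairs tested, in percent, with open circles for replicate 1, filled squares for replicate 2 and lines for 95% exact intervals. Mir128 (blue) and Mir138 (green) lie at 80 to 82% and 64 to 67%, and Mir129 (red) lies at 16 to 22%, with copy 2 in the lead.

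The Mir128 pair and Mir129-2 stood higher in replicate 2, and the Mir138 copies and Mir129-1 differed little. The log2 ratio of CPM (replicate 2 over replicate 1) was 0.70 for Mir128-1 with a counting SE of 0.010 (1.63-fold), 0.44 for Mir128-2 with an SE of 0.021 (1.36-fold) and 0.75 for Mir129-2 with an SE of 0.030 (1.68-fold). It was 0.15 for Mir129-1 with an SE of 0.059, 0.11 for Mir138-1 with an SE of 0.017 and −0.08 for Mir138-2 with an SE of 0.023. In an exact conditional binomial test over the 392 genes that reached 10 counts in each library (two-sided, Benjamini-Hochberg adjusted), 5 of the 6 members passed as higher in replicate 2 and 1, Mir138-2, as lower. Over all genes tested 56.9% passed, 34.2% as higher and 22.7% as lower. Of the 242 genes that reached 100 counts in each library, as every member did, 194 passed when tested alone, 115 as higher and 79 as lower. A pass therefore sets no member apart. The adjusted p was 0.0218 for Mir129-1, 0.00139 for Mir138-2 and 5.91e-11 for Mir138-1, and at most 1.26e-100 for the other members.

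The members' ratios lay inside the range of the other genes' ratios. Among 242 genes that reached 100 counts in each library, log2 ratios had an SD of 0.559, and the 6 members, with a median of 0.29, reached at most 0.75. Of the 392 genes, whose median log2 ratio was 0.06, 284 lay within 1.5-fold, as did 4 of the members. By size of the ratio Mir129-2 ranked 76 and Mir128-1 ranked 86 of 392. In the exact test of edgeR, with a dispersion estimated from the same 2 libraries (biological coefficient of variation 0.311), the adjusted p was 1 for every member, and 3 genes passed in all (0.765%). That test has 1 library on each side and no replicate check. Whether a difference belongs to the mouse or to its library cannot be told apart. Mir129-1 did not pass the binomial test with TMM scaling (log2 ratio 0.09, adjusted p = 0.191), with DESeq2 size factors (0.08, adjusted p = 0.252) or with all mapped reads as the total (0.02, adjusted p = 0.802).

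**Figure D4:**
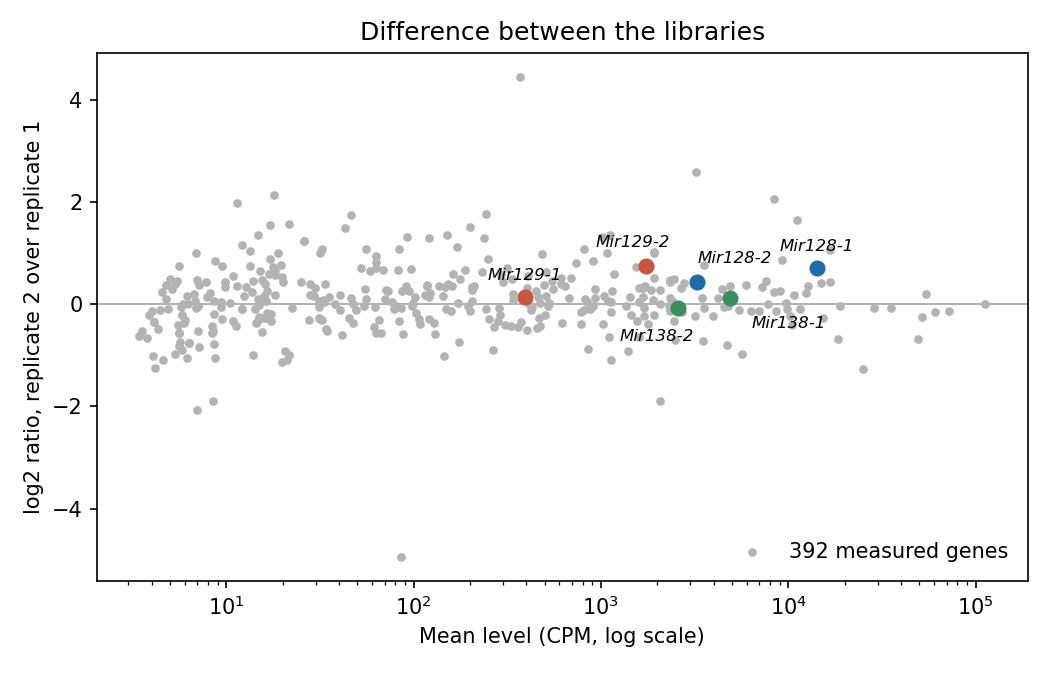
Log2 ratio of CPM, replicate 2 over replicate 1, against the mean level in CPM on a log axis, for the 392 genes tested (grey) and the 6 members (coloured by pair). Mir129-2 and Mir128-1 lie at 0.75 and 0.70 and the Mir138 copies close to 0, all inside the cloud of the other genes.

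The ratios of the members were read beside 22 other miRNA genes known to be enriched in neurons. Of the 19 with at least 10 counts in each library, 5 passed as higher and 5 as lower in replicate 2, where 34.2% and 22.7% of all genes tested did so, with a median log2 ratio of 0.16 against 0.06 over all genes tested. Mir132, whose transcription follows neuronal activity, was the most abundant, at 60392 and 37793 CPM, and was lower in replicate 2 (log2 ratio −0.68, counting SE 0.0052). Mir433 was lower too, at 16764 and 13795 CPM (log2 ratio −0.28, SE 0.0093). Mir137, a regulator of neuronal maturation, had 6366 and 8063 CPM (log2 ratio 0.34, SE 0.014) and Mir485 had 2243 and 2426 CPM (log2 ratio 0.11, SE 0.024). The Mir128 genes and Mir132 thus differed between the libraries in opposite directions. The summed share of neuronal markers was lower in replicate 2, through Mir132 and Mir433 and against Mir137, while Mir126a and Mir219a-2 raised the endothelial and oligodendrocyte sums. The part of these cell types in the members' ratios was not tested.

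For each member the non-member gene with the nearest pair of levels was found by Euclidean distance of log2(CPM + 1) over the 2 libraries. Mir383 was nearest to Mir138-1, at 4734 and 5029 CPM (distance 0.021), and Mir488 was nearest to Mir129-1, at 375 and 418 CPM (distance 0.023). Mir219a-2, an oligodendrocyte miRNA, was nearest to Mir129-2, at 1345 and 2210.3 CPM (distance 0.065). Mir181d was nearest to Mir138-2 (distance 0.13), Mir30e to Mir128-2 (0.25) and Mir125a to Mir128-1 (0.25). With 2 libraries this likeness says only that a level and a ratio were close.

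Mir129-2 is the only member that another miRNA gene overlaps. Mir129b (ENSMUSG00000106336.1) is annotated on the plus strand at chr2:94241378-94241442, inside Mir129-2 and opposite to it. On its own strand Mir129b had 4 counts in each library, against 3082 and 9668 for Mir129-2. The column that takes both strands together held 13 and 16 counts for Mir129-2 and 0 and 0 for Mir129b, and the own-strand counts of Mir129-2 outside the span of Mir129b were also 13 and 16. The reads of this locus are thus found by the own-strand column and lost where strands are pooled. The other 5 members had the same count in both columns and no count on the opposite strand.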

How the data were processed

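The authors deposited raw read counts per gene for mm10 and GENCODE M21, per the file headers in their readme text; which aligner and counter made them is not given in the sources used here. Their 3 columns have no header and were read, from the values, as counts on both strands, the gene's own strand and the opposite strand. The 4 leading entries, which name no gene, entered neither totals nor tests: unmapped reads were 31.6% of all reads in replicate 1 and 18.2% in replicate 2, and 7.36% and 6.91% of mapped reads lay in no feature. All 2202 gene identifiers matched GENCODE M21. The reference is that of C57BL/6J, and mismatches of the CAST/EiJ allele were not tested.

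CPM, shares and tests were computed here from own-strand counts. With 1 group, edgeR's quasi-likelihood test has no contrast to fit, so an exact conditional binomial test was run on genes reaching 10 counts in each library, at an adjusted p of 0.05, and copy shares by Fisher's exact test (odds ratios with 0.5 added to each count). P-values below 1e-300 were set to that value. Intervals are exact Clopper-Pearson at 95%. Intervals, counting SEs and floors cover counting error only, since PCR copies of 1 molecule cannot be recognised in these reads. Both tests were also run on simulated counts that varied by counting error alone, which does not check them against variation between mice or libraries. Alternatives were TMM and DESeq2 scaling, all mapped reads as total, both strands together, count minimums of 1 and 100, edgeR's exact test, pseudocounts of 0.1 and 1 CPM, shares per base, other minimums for pairs, and each library left out.

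The genes named are the members, the nearest gene to each, the 4 most abundant neuron-enriched genes, the 3 other pairs with the highest counts, and, chosen after their values were seen, Mir129b and individual cell type markers. Members and lists were chosen with earlier results of these data known. Sequences are from RefSeq (GRCm38.p6); hairpins were aligned globally (match 1, mismatch −1, gap opening −3, extension −1). The software was R 4.3.3 with edgeR 4.0.16 and DESeq2 1.42.0, and Python 3.11.15 with Biopython 1.88, pandas 2.3.3, NumPy 2.4.6, SciPy 1.17.1 and matplotlib 3.10.9.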

Additional observations from a re-analysis of the deposited data

Results flagged for a closer look

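Reads on the strand opposite to Mir129-2, a column that no comparison used, numbered 4 in replicate 1 and 4 in replicate 2. Both lie above the 3 counts that a count of 0 allows, and the same 4 counts were assigned to Mir129b, which is annotated there. The other 5 members had 0 counts on the opposite strand in both libraries.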

How the results depend on the processing

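Counting both strands together gave Mir129-2 a mean of 4.89 CPM, Mir129-1 425 CPM with 98.8% of the pair's counts, Mir138-1 5329 CPM and Mir138-2 2783 CPM. It reversed the log2 ratio of Mir129-2 to −0.57 and the log2 odds ratio of Mir129 to 0.75 (adjusted p = 0.441 by the binomial test and 0.233 by Fisher's exact test), since 13 and 16 counts were left. With all mapped reads as the total, mean levels were 5928 CPM for Mir128-1, 1371 for Mir128-2, 165 for Mir129-1, 722 for Mir129-2, 2069 for Mir138-1 and 1084 for Mir138-2, the log2 ratio of Mir138-1 reversed to −0.016 (adjusted p = 0.447) and Mir129-1 lost its call (log2 ratio 0.02, adjusted p = 0.802). That total moved the median log2 ratio of all genes by −0.13, and the calls were then 107 higher and 119 lower; they were 121 and 99 with TMM and 118 and 102 with DESeq2. Of the neuron-enriched genes, 3 passed as higher with DESeq2 and 2 with all mapped reads. EdgeR's exact test called 3 genes, 2 higher and 1 lower, with 0 and 0 of the neuron-enriched list. Per base of length the Mir138-1 share moved to 57.8%. Of the 54 alternative values for the members' library ratios, 43 kept direction and call. The pseudocounts reused the main adjusted p and the count minimums left each member's ratio unchanged, so these settings could hardly change a call. With edgeR's exact test no member kept its call. Without replicate 1 or without replicate 2, each level and copy share is that of the remaining library, as given above, and 2 libraries allow no statement on stability. No paired analysis was possible because there is 1 group. Depth does not limit the members' levels, but reads with several matches do.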
